A study of Mus musculus with 12 samples.

Results

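Of 1192075 regions in the deposited count table, 7807 carried H3K27ac in all 4 libraries of that mark with at most a trace of H3K4me3. They were chosen by their raw counts: 5 or more in each of the 4 H3K27ac libraries, a sum of at most 1 over the 4 H3K4me3 libraries, and 5 or more in fewer than 3 of the 4 H3K23ac libraries. These 7807 regions, called members here, made up 0.655% of the table and 42.5% of the 18374 regions that met the H3K27ac condition. Both genotypes entered the rule alike by count, so the levels of the marks describe the members and are not tested. CSE-KO over WT was not part of the rule. The same count is a lower share of the deepest library, a CSE-KO one, so the rule may bear on the fold change.

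The material was lung endothelium of mice, taken as isolated cells. Labels name each sample WT and Cre-negative, or CSE-KO and Cre-positive, and each genotype has 2 libraries for H3K23ac, 2 for H3K27ac and 2 for H3K4me3. Libraries were made by ACT-seq, in which an antibody bound to a Protein A and Tn5 fusion directs the insertion of sequencing adaptors into nearby chromatin. CSE, cystathionine gamma-lyase, is the enzyme that makes cysteine from cystathionine. The labels give neither the promoter that drives Cre nor the age of the mice, and do not say whether animals were pooled or whether replicates came from separate animals. An effect of Cre and one of the knockout cannot be told apart, and p-values cover the scatter of these libraries alone, which may be technical.

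Acetylation of histone H3 at lysine 27 marks active promoters and active enhancers. Trimethylation at lysine 4 is concentrated at promoters, and distal enhancers typically carry H3K27ac with little of it, so the pair of marks is often used to separate the classes of element. Acetylation at lysine 23 is another mark of open, active chromatin. The table names each region by a list number and a running number, without coordinates, length or gene, so whether a member lies at a promoter or an enhancer was not analysed here, nor were endothelial marker genes or the deletion itself.

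Library totals ran from 1110254 to 4242014 counts for H3K27ac, from 396441 to 563755 for H3K4me3 and from 1466588 to 1908675 for H3K23ac. CSE-KO H3K27ac replicate 1 was the deepest. Levels are given as CPM, the count scaled to a library total of 1000000, per region and not per length. The number of a list was read as that of a library in the labels. For 12 of 12 lists, the library so numbered had more of its counts in the list, as a share, than any other library. A list is therefore called the list of that library here.

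Most members lay close to the count that admitted them. The median count was 7 in WT replicate 1, 7 in WT replicate 2 and 7 in CSE-KO replicate 2, and 23 in the deeper CSE-KO replicate 1. On the CPM scale WT had medians of 5.18 and 6.30 and CSE-KO of 5.42 and 5.44. Where the median count was 7 it lay just above the rule's floor of 5, so the nearness of these medians is not read as agreement. The mean over the 4 libraries had a median of 6.06 CPM and ran from 3.32 to 64.2 CPM. It reached 10 CPM in 688 members (8.81%), 20 CPM in 64 and 50 CPM in 3. Together the members held 5.10% and 5.88% of the WT H3K27ac counts and 4.98% and 5.33% of those in CSE-KO.

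A count of 5 is not the same level in each library. It equals 3.70 and 4.50 CPM in the WT replicates, 1.18 CPM in CSE-KO replicate 1 and 3.89 CPM in CSE-KO replicate 2. The rule therefore admitted lower levels in the deepest library, where the 5th percentile of the members was 1.89 CPM. In 3639 members (46.6%) the lowest of the 4 counts was exactly 5, and their mean level had a median of 5.21 CPM. Another 7621 regions missed the rule with a lowest count of 4, at a median of 4.36 CPM.

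**Figure D1:**
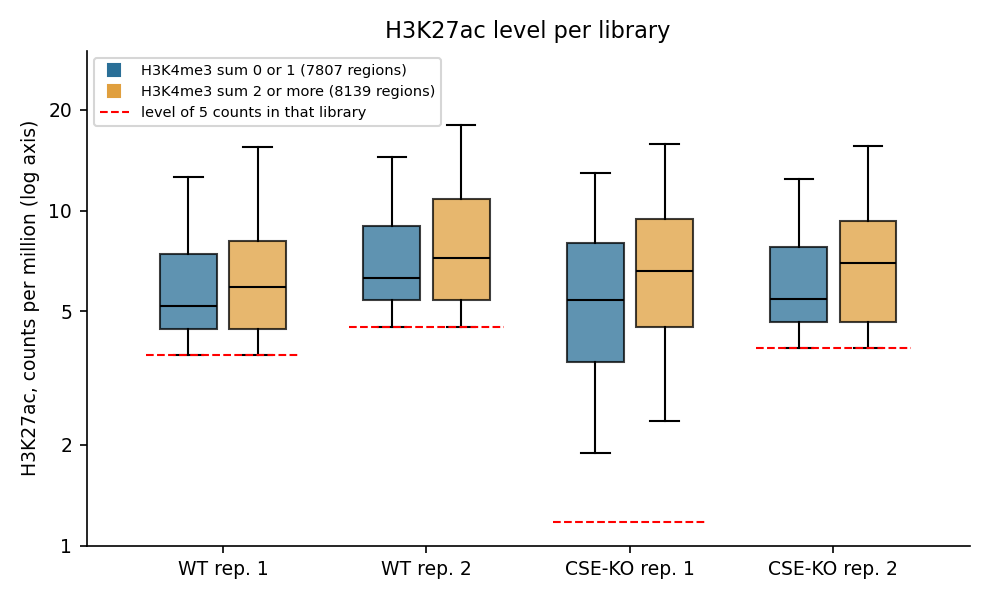
H3K27ac level in CPM (log axis) in the 4 H3K27ac libraries, for the members (blue) and for regions under the same H3K27ac and H3K23ac conditions with 2 or more H3K4me3 counts (orange). Boxes show the median and quartiles over regions, whiskers the 5th and 95th percentiles, and red dashes the level of 5 counts, which is 1.18 CPM in CSE-KO replicate 1 and 3.70 CPM or more in the others.

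The 6 members of highest mean level stood far above this bulk. The region peak1_37885, from the list of WT H3K23ac replicate 1, held 82 and 86 H3K27ac counts in the WT libraries and 204 and 91 in the knockout libraries. The means were 69.1 ± 11.9 CPM in WT and 59.4 ± 16 CPM in CSE-KO (SD, n = 2 per genotype). The genotypes overlapped there. Its H3K4me3 counts were 0 in all 4 libraries, and its H3K23ac counts were 147 in WT replicate 1 and 0 in the other 3.

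The other 5 came from the list of CSE-KO H3K27ac replicate 1, and all had 0 H3K4me3 counts. The region peak9_157973 had 88.8 and 23.4 CPM in WT and 58.9 and 59.9 CPM in CSE-KO, so that the WT replicates lay on either side of both knockout libraries. The region peak9_103674 had 37.7 and 66.7 CPM in WT and 52.6 and 51.3 CPM in CSE-KO, again with the WT values outermost. In peak9_139895 WT stood at 41.4 and 39.6 CPM and CSE-KO at 52.3 and 40.4 CPM, the closest WT pair of the 6. It had no H3K4me3 count in spite of 44 or more H3K27ac counts in every library.

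Another of these, peak9_15537, had 29.6 and 47.7 CPM in WT and 34.7 and 42.8 CPM in CSE-KO, with the knockout pair inside the WT pair. It had 0 counts of both other marks in all 8 libraries. Only peak9_146552 separated the genotypes among the 6, with 31.1 and 18.0 CPM in WT and 50.9 and 61.4 CPM in CSE-KO, an edgeR log2 fold change of 1.18 with a standard error of 0.50 (unadjusted p = 0.022, adjusted p = 0.996).

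The H3K4me3 condition was a statement about few reads. No H3K4me3 count was found in 5586 members (71.6%), and 2221 (28.4%) had 1. The 4 H3K4me3 libraries held 1958470 counts together, so 0 counts allow up to 3, or 1.53 CPM over the 4 libraries. If H3K4me3 had stood at the same CPM as H3K27ac, the median member would have held 11.9 H3K4me3 counts, with a range of 6.50 to 126. Among the members with 0, pooled H3K27ac CPM was 1.63-fold to 38.6-fold this limit, with a median of 3.76-fold, and it reached 10-fold in 122. Depth therefore limits how free of H3K4me3 most members can be said to be, and CPM of different antibodies is a share of each library rather than an amount of mark. These limits cover counting error only. They hold for a region fixed in advance, whereas the members were chosen for low H3K4me3 counts.

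The single H3K4me3 counts were not spread by depth. WT replicate 1 held 687 of the 2221, CSE-KO replicate 1 held 688 and CSE-KO replicate 2 held 620, but WT replicate 2 held 226. That library supplied 10.2% of the single counts and 28.8% of all H3K4me3 counts. In regions under the same conditions with 20 or more H3K4me3 counts it supplied 23.7%. Regions just outside the rule, with 2 H3K4me3 counts, numbered 1629 and had a median H3K27ac level of 6.69 CPM, against 6.32 CPM in members with 1 count and 5.96 CPM in members with none.

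Replicates shared the order of the members only weakly. Over the 7807 members Spearman's coefficient of log2 CPM was 0.222 between the WT replicates and 0.391 between the CSE-KO replicates (Pearson's 0.313 and 0.449). The 4 pairs of different genotypes gave 0.274 to 0.318, between those values. The points share the floor of 5 counts, which narrows the range, and these coefficients across regions are descriptions. With 10 or more counts in every library, 540 members were left and the coefficients were 0.336 and 0.509. In the 688 members with a mean of 10 CPM or more they were lower, at -0.037 and 0.285. Agreement thus did not rise with every cut on level.

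The median absolute log2 ratio was 0.48 between the WT replicates and 0.52 between the CSE-KO replicates, and 84.4% and 79.8% of members were within 2-fold. Pairs of different genotypes were no farther apart where CSE-KO replicate 2 was one of them, at 0.41 with WT replicate 1 (88.0% within 2-fold) and 0.43 with WT replicate 2 (87.0%). With CSE-KO replicate 1 they were at 0.56 (76.7%) and 0.57 (74.1%). Replicates were thus not closer to each other than to every library of the other genotype. The replicate SD on the log2 scale, pooled over the genotypes, had a median of 0.43 and ran from 0.01 to 2.53. At the low end, peak9_88351 had 4.44 and 4.50 CPM in WT and 7.78 and 7.77 CPM in CSE-KO. Likewise peak1_136790 had 4.44 and 4.50 CPM in WT and 5.42 and 5.44 CPM in CSE-KO. Both rest on 5 or 6 counts in each WT library, so this closeness is finer than their counting error.

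At the high end, peak10_91040 had 1.41 CPM (6 counts) in CSE-KO replicate 1 and 45.1 CPM (58 counts) in replicate 2, with 8.14 and 4.50 CPM in WT. The region peak10_85875 differed between replicates in both genotypes, with 4.44 and 27 CPM in WT and 3.06 and 24.1 CPM in CSE-KO. Both are from the list of CSE-KO H3K27ac replicate 2, where both were high, and peak10_85875 was as high in WT replicate 2.

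**Figure D2:**
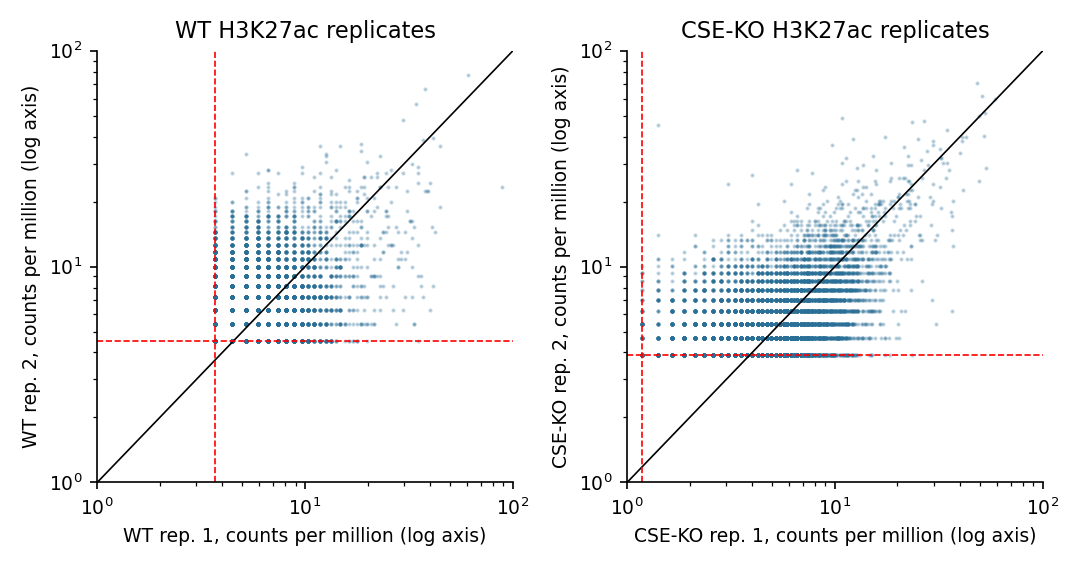
H3K27ac level of each member in replicate 1 (horizontal) and replicate 2 (vertical) of WT (left) and CSE-KO (right), in CPM on log axes; red dashes mark 5 counts and the line marks equal levels. Points crowd just above the dashes, and the order of the members is shared only in part, with Spearman's coefficients of 0.222 and 0.391.

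H3K23ac was patchy over the members, but its replicates disagreed about as much over the whole table (chi-square sums are given with the processing). None of the 4 H3K23ac libraries had a count in 3202 members (41.0%), 1 library had one in 2799, 2 in 1330, 3 in 418 and all 4 in 58. By library, a count was present in 30.3% and 11.5% of members in WT and in 20.1% and 27.1% in CSE-KO, so the genotypes overlapped. With 5 counts as the threshold, 4359 members (55.8%) had no library, 2814 had 1 and 634 had 2. A further 223 regions with 5 or more in 3 or 4 libraries were left out by the rule, and their median H3K27ac level was 7.65 CPM, against 6.84 CPM in the 634.

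Where H3K23ac was present it mostly came from the library that had named the region. Members of the 4 H3K23ac lists numbered 3280, and the library of the list held 88.0% to 91.3% of their H3K23ac counts. Among the 4519 members of H3K27ac lists, 67.9% had no H3K23ac count and 1.17% had 5 or more in 2 libraries. The 634 members with 2 such libraries were shared by the WT replicates in 56 cases, by the CSE-KO replicates in 161 and by 1 library of each genotype in the others. The pair of WT replicate 1 and CSE-KO replicate 2 was the most frequent, with 173.

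The member with the most H3K23ac, peak2_29819, held 0 and 261 counts in the WT libraries and 0 and 62 in the knockout libraries, while its H3K27ac was 6.66 and 6.30 CPM in WT and 14.4 and 5.44 CPM in CSE-KO. The next, peak2_63788, held 4 and 218 H3K23ac counts in the WT libraries and 0 and 11 in the knockout libraries. Its H3K27ac was 7.40 and 10.8 CPM in WT and 3.77 and 7.00 CPM in CSE-KO. In both regions replicate 2 of WT held most of the H3K23ac. The 14.4 CPM of peak2_29819 in CSE-KO replicate 1 was above the members' 95th percentile there, 12.97 CPM, and its other values lay between the members' quartiles.

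The median H3K27ac level did not rise in step with H3K23ac. The median of the mean level was 5.91 CPM in the 3202 members without H3K23ac, 6.51 CPM in 1157 with counts below 5 in every library, 5.91 CPM in 2814 with 5 or more in 1 library and 6.84 CPM in the 634 with 2.

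H3K23ac was less frequent in the members than in regions with H3K4me3 under the same H3K27ac and H3K23ac conditions. Of 8139 such regions with 2 or more H3K4me3 counts, 49.8% and 19.4% had an H3K23ac count in the WT libraries and 35.8% and 45.7% in the CSE-KO libraries. The members were lower in 4 of 4 libraries. The share of regions without any H3K23ac count was lower at higher H3K4me3 sums, from 43.1% at 0 and 35.8% at 1 to 30.1% at 2, 29.1% at 3 to 5, 19.3% at 6 to 19 and 5.47% at 20 or more (1225 regions). The sets were cut on counts, so no test is given, and the lengths of the regions were not used here.

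The same order was found with the H3K27ac lists pooled and with the H3K23ac lists pooled. Single lists were not examined for it. In H3K27ac lists 67.9% of members had no H3K23ac count, against 45.8% of regions with 2 or more H3K4me3 counts and 14.6% of those with 20 or more. In H3K23ac lists the shares were 3.96%, 2.32% and 0.935%. H3K27ac was also lower in the members. The median of the mean level was 6.98 CPM with 2 or more H3K4me3 counts, against 6.06 CPM in the members. The library medians of those regions were higher than the members' in 4 of 4 libraries. Their mean level reached 10 CPM in 17.6%, against 8.81% of the members.

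**Figure D3:**
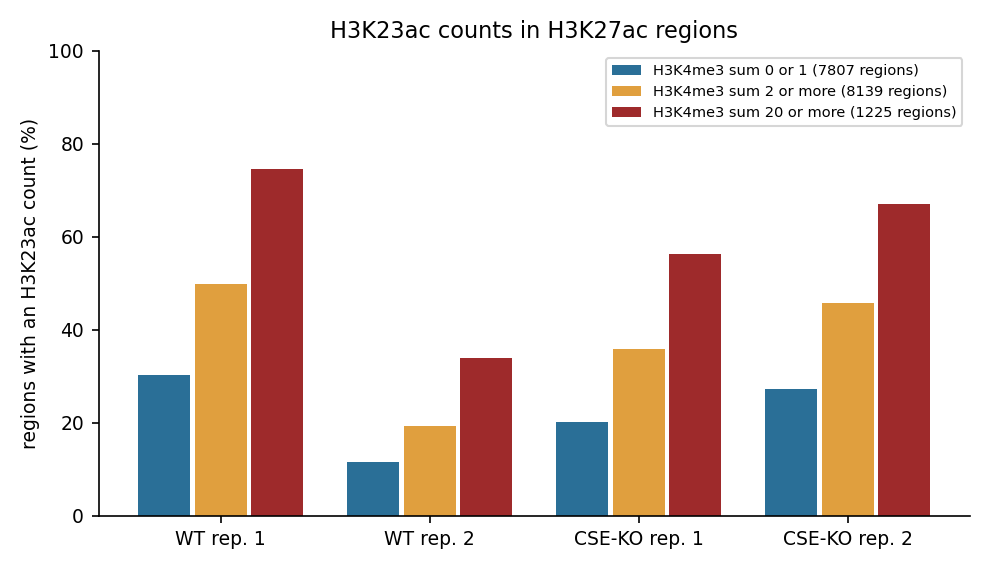
Share of regions with at least 1 H3K23ac count in each of the 4 H3K23ac libraries, in percent, for the members and for regions under the same H3K27ac and H3K23ac conditions with 2 or more, or 20 or more, H3K4me3 counts. The members have the lowest share in each library, from 11.5% in WT replicate 2 to 30.3% in WT replicate 1.

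The members were spread unevenly over the lists. H3K27ac lists supplied 4519 (57.9%), of which 3261 were in that of CSE-KO replicate 1, the deepest library and the longest list. The H3K23ac lists supplied 3280 (42.0%) and the H3K4me3 lists 8 (0.102%). Among the 18374 regions that met the H3K27ac condition the shares were 44.2%, 51.8% and 3.97%, and the limit on H3K4me3 counts in the rule bears directly on the last of these. In each H3K27ac list the library of the list had the highest median of the 4: 8.88 CPM in WT replicate 1, 8.11 CPM in WT replicate 2, 7.54 CPM in CSE-KO replicate 1 and 8.55 CPM in CSE-KO replicate 2. Members of the H3K23ac lists gave medians of 5.18 to 5.92 CPM in WT replicate 1, 6.30 to 7.21 CPM in WT replicate 2, 4.36 to 4.95 CPM in CSE-KO replicate 1 and 5.44 to 6.22 CPM in CSE-KO replicate 2.

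CSE-KO was compared with WT to ask whether H3K27ac at these regions moved without CSE, and no member passed the threshold. The edgeR quasi-likelihood test, with library totals as size, ran over 127822 regions with 20 or more H3K27ac counts in total, which all 7807 members passed by the rule. It called 6 regions at an adjusted p under 0.05 (0.00469% of those tested), 2 higher (0.00156%) and 4 lower (0.00313%) in CSE-KO, and none was a member. All 6 had a count of 0 or 1 in some H3K27ac library, which the rule does not admit. Requiring 5 counts in each library thus limits the fold a member can show. When 1 library was left out, the number called was 41 (WT replicate 1), 92 (WT replicate 2), 2 (CSE-KO replicate 1) or 3 (CSE-KO replicate 2).

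Without the adjustment, 34 members were higher and 108 lower at p under 0.05 (edgeR), or 0.436% and 1.38%, against 2.79% and 1.66% of all regions tested. DESeq2 called 0 members, where 12 were higher and 21 lower before adjustment (0.154% and 0.269%, against 0.446% and 0.270% of all regions tested). TMM factors in edgeR gave a split of 18 and 193 members (0.231% and 2.47%, against 2.07% and 2.31% of all regions tested), and DESeq2 size factors one of 13 and 229 (0.167% and 2.93%, against 1.84% and 2.56%). The share of members lower was thus close to that of all regions, and the share higher was below it. The filter summed raw counts, so the deepest library, CSE-KO replicate 1, weighed most in it. Of the 127822 regions tested, 55685 were from its list, with a median log2 fold change of 0.56 and 80.0% above 0. All tested regions are therefore not a neutral background for the members. The lowest adjusted p of a member was 0.524 (edgeR). A fit that leaves out a WT library rests on a lone library of that genotype. The members' median log2 fold change was then -0.22 without WT replicate 1 and 0.02 without WT replicate 2. Over all tested regions it was 0.22 and 0.35. The members called in those fits are given below with their counts.

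The members' median log2 fold change was -0.13, with an SD of 0.56 and a range of -2.41 to 2.44, and 3134 of 7807 (40.1%) were above 0. Over all tested regions the median was 0.20 and the SD 0.98, with 59.8% above 0. The 8139 regions with 2 or more H3K4me3 counts, which met the same H3K27ac floor, were centred at -0.09 (SD 0.53, 43.2% above 0), so the members did not stand apart from them by these values. Both CSE-KO libraries lay above both WT libraries in 1018 members (13.04%, against 22.9% of all tested regions). Both lay below in 1516 (19.4%, against 11.1%). For any difference in level, the number of cells carrying the mark and the mark per cell cannot be told apart here.

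This direction differed with the floor that was required, and the cause was not tested. When the same level, 4.50 CPM or 7, 5, 20 and 6 counts in the 4 libraries, was required in each, 2973 members were left. Their median was 0.03, and 52.4% were above 0. The median was 0.02 without WT replicate 2 (50.8% above 0). Scaling moved it too, to -0.26 with TMM factors and -0.30 with DESeq2 size factors, but the median of all tested regions moved with it, to 0.07 and 0.03. The members' median minus that of all tested regions was -0.34 with library totals, -0.33 with TMM factors, -0.33 with DESeq2 size factors. It was -0.03 with filterByExpr, which left 10666 regions and 2444 members (members' median 0.03, all 0.06). With 1 library left out it was -0.44 (WT replicate 1), -0.33 (WT replicate 2), -0.05 (CSE-KO replicate 1) and -0.46 (CSE-KO replicate 2).

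The fold change also followed the list that named the member. In the lists of the WT H3K27ac libraries the median was -0.93 (310 members) and -0.82 (492), close to the -1.02 and -0.85 of all tested regions of those lists. In the lists of the CSE-KO H3K27ac libraries it was 0.16 (3261) and -0.09 (456), against 0.56 and 0.60 of all tested regions there. In the 4 H3K23ac lists the medians ran from -0.37 to -0.30, against -0.07 to -0.05 of all tested regions. With the H3K27ac lists left out, 3288 members had a median of -0.34 and 23.9% were above 0. By H3K23ac, members without a count had a median of -0.01, and those with a count, 68.4% of which came from H3K23ac lists, one of -0.22. The part of the list in the fold change of the members was not tested.

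**Figure D4:**
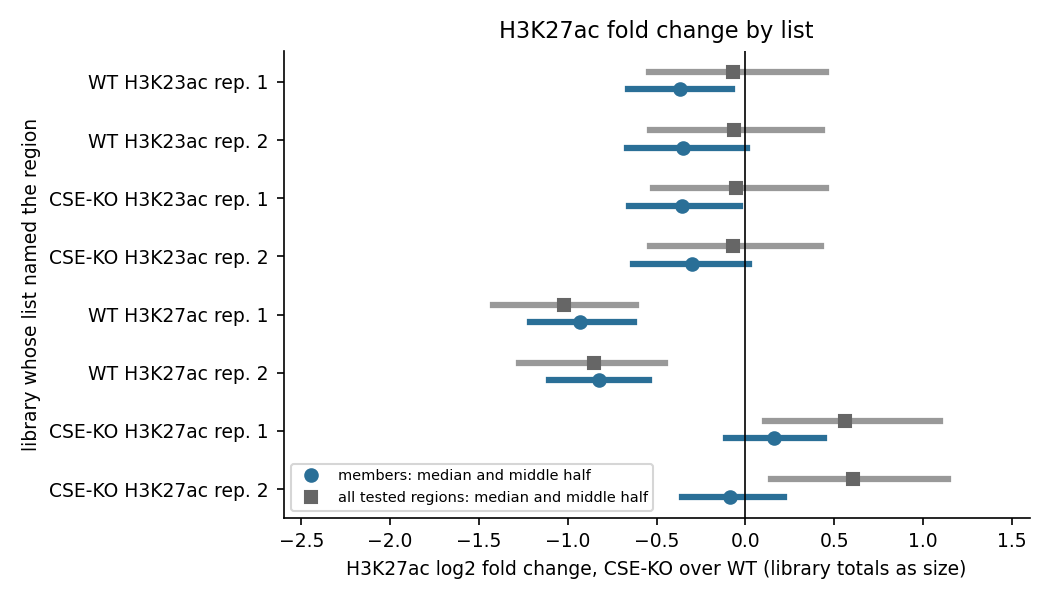
Log2 fold change of H3K27ac, CSE-KO over WT with library totals as size, by the library whose list named the region, for the members (blue circles) and all tested regions of that list (grey squares); points are medians and bars run from the 25th to the 75th percentile. The member medians are -0.93 and -0.82 in the lists of the WT H3K27ac libraries, and those of the other lists shown lie between -0.37 and 0.16.

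The members nearest to the threshold show what the test had to work with. The region peak9_33479 held 7 and 5 counts in the WT libraries and 156 and 19 in the knockout libraries, with means of 4.84 ± 0.477 and 25.8 ± 15.6 CPM (SD, n = 2). Both knockout libraries were above both WT libraries, though they were 36.8 and 14.8 CPM. The log2 fold change was 2.44 (SE 0.64, edgeR adjusted p = 0.524), and the region had 1 H3K4me3 count and 0 H3K23ac counts. Without CSE-KO replicate 1 the fold change was 1.59 (edgeR adjusted p = 0.994).

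The region peak9_69606 held 14 and 8 counts in the WT libraries and 150 and 36 in the knockout libraries, with means of 8.78 ± 2.23 and 31.7 ± 5.21 CPM (SD, n = 2). Here the genotypes were well apart and the replicates close, and the log2 fold change was 1.84 (SE 0.57, edgeR adjusted p = 0.936). It carried 15 H3K23ac counts in CSE-KO replicate 2 and 0 in the other 3 libraries. This region and peak9_33479 share a list, that of CSE-KO H3K27ac replicate 1.

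In the other direction, peak7_75484 held 47 and 10 counts in the WT libraries and 19 and 5 in the knockout libraries, with means of 21.9 ± 18.2 and 4.18 ± 0.419 CPM (SD, n = 2). The WT replicates, at 34.8 and 9.01 CPM, differed more from each other than the lower one did from CSE-KO. The log2 fold change was -2.36 (SE 0.63, edgeR adjusted p = 0.599). It became -3.01 without WT replicate 2 (edgeR adjusted p = 0.000199) and -1.07 without WT replicate 1 (edgeR adjusted p = 0.829), so its size depended on which WT library was kept. It is from the list of CSE-KO H3K23ac replicate 1 but had 0 H3K23ac counts in all 4 libraries.

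The region peak4_80303, from the list of WT H3K27ac replicate 2, held 27 and 16 counts in the WT libraries and 16 and 5 in the knockout libraries, with means of 17.2 ± 3.93 and 3.83 ± 0.0816 CPM (SD, n = 2). Its genotypes did not overlap, and its log2 fold change was -2.16 (SE 0.63, edgeR adjusted p = 0.886). It had 0 counts of H3K4me3 and H3K23ac.

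Another 5 members were called when a WT library was left out. Without WT replicate 1 they were peak4_34243 and peak4_54839, with 9 and 31 WT counts against 16 and 6 in the knockout, and 7 and 37 against 19 and 6. Without WT replicate 2 they were peak1_122555 (38 and 12 WT counts, 16 and 12 knockout counts), peak1_130156 (45 and 17, 34 and 6) and peak3_80694 (43 and 18, 28 and 9). These regions were singled out after their values were seen. In each, the WT library that was kept had the higher CPM of the pair, and with all 4 libraries their edgeR adjusted p ran from 0.944 to 0.996.

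**Figure D5:**
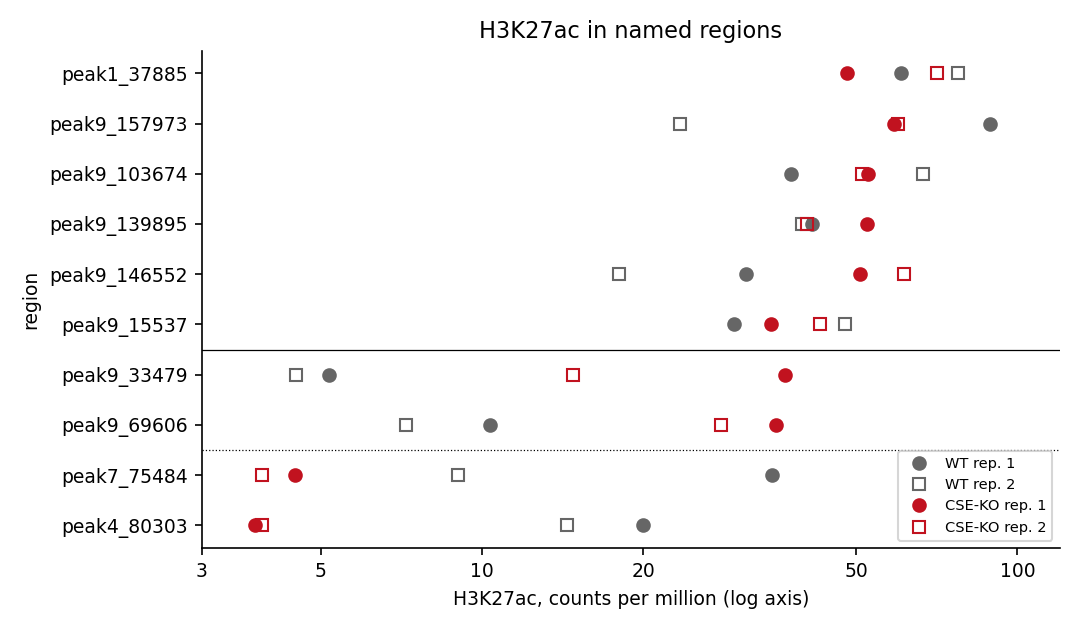
H3K27ac level in CPM (log axis) in each of the 4 libraries for the 6 members of highest mean level (top), the 2 with the lowest p among those higher in CSE-KO (middle) and the 2 among those lower (bottom). Grey is WT and red CSE-KO, with filled circles for replicate 1 and open squares for replicate 2; in 5 of the top 6 the genotypes overlap.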

How the data were processed

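For 12 ACT-seq libraries in 6 groups of 2, the authors deposited raw counts of reads over regions, not normalized. ChIPseeker 1.38.0, Subread and edgeR 4.0.16 under R 4.3.3 are named in the submitters' processing notes, as are the builds GRCm39 and mm10, without a role. Not given in the sources used here are the aligner, the peak caller, the removal of duplicates and the counting of reads over overlapping regions. Of the regions, 560127 (47.0%) had no count.

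Groups follow the sample titles. CPM is the count over the library total. H3K27ac was tested in its 4 libraries with edgeR 4.0.16 in R 4.3.3 (estimateDisp, glmQLFit, glmQLFTest, two-sided) with library totals as size, over regions with 20 or more H3K27ac counts in total, with Benjamini-Hochberg adjustment over all of them and a threshold of 0.05. The biological coefficient of variation was 0.387. On simulated counts of the same libraries, the test recovered most of the largest changes and few of the smaller ones. The changes were placed only in regions of higher level, with the same variation for all, set somewhat below that of the data. Recovery for the members themselves was not measured. The other tool was DESeq2 1.42.0. Python 3.11.15 with pandas 2.3.3 and numpy 2.4.6 made the summaries. Over the whole table, replicates of each H3K27ac genotype differed by more than counting noise, with chi-square sums of 1.61 and 1.84 per region in WT and CSE-KO. Over the members the sums were 1.13 per region in WT and 1.91 in CSE-KO, so the excess over counting noise was small in WT. The floor of the rule narrows the counts there. For H3K23ac the sums per region with a count were 18.4 in WT and 18.3 in CSE-KO over the whole table. Over the members they were 16.2 and 19.0.

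The members and the tests were chosen with earlier results of these data known, and the rule of a common CPM floor was added after the data were seen. Regions were named by a rule: the 6 of highest mean CPM, at most 2 per direction of lowest p, the 2 with most H3K23ac, and the 2 of smallest and 2 of largest replicate spread. The alternatives were other size factors, filters and tools, the replicate number as a block, each library left out, and stricter or looser member rules.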

Additional observations from a re-analysis of the deposited data

How the results depend on the processing

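The number of regions called for H3K27ac over the whole table, 6, was 2 with TMM factors, 8 without a filter, and 0 with DESeq2 size factors, with filterByExpr at a minimum count of 10 and with the DESeq2 Wald test (5626, 363 and 915 regions at an unadjusted p under 0.05). Leaving out each library gave 2 to 92 regions, of which 1 to 6 were among the 6, and 0 to 4 members called, where the lone library of a genotype is assumed to vary like the other pair. No other setting called a member. The median log2 fold change of the members, -0.13, was -0.30 with DESeq2 size factors, 0.0305 with filterByExpr (only 2444 of 7807 members passed), -0.34 in H3K23ac and H3K4me3 lists only, 0.0286 with the same CPM floor in each library and -0.22 to 0.0198 when each library was left out. The cause was not tested. The member rule set the level: with 10 or more counts in each library the medians were 10.4 and 12.6 CPM in WT and 10.8 and 11.7 CPM in CSE-KO, and with the same CPM floor 7.40, 7.21, 7.78 and 7.00 CPM. With an H3K4me3 sum of at most 3 (10713 regions) the CSE-KO medians were 5.66 and 6.22 CPM. The median in CSE-KO replicate 1 was 5.89 CPM in members without H3K23ac and 4.71 CPM in H3K23ac and H3K4me3 lists only.

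With the replicate number as a block, 2 regions and 0 members were called and the median of the members was -0.12. The numbers are shared by the titles alone, and the replicate differences of WT and CSE-KO had a correlation of -0.0246 over the tested regions, so the block is given only here. Depth limits the members most in the shallow libraries, where 19.1% to 22.3% of them had exactly 5 counts, against 0.999% in CSE-KO replicate 1.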

Other observations

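Members with nearby running numbers in a list were more frequent than members far apart. Directly after another member in the same list stood 226 members (2.89%), and 195 stood 2 numbers, 158 stood 5 numbers, 103 stood 50 numbers and 93 stood 1000 numbers after one. The 8139 regions with 2 or more H3K4me3 counts gave 257, 184, 176, 112 and 74. Whether running numbers follow position on the genome is not stated in the table or the labels, and was not tested.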
